A study of Mus musculus with 16 samples.

Results

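The loss of ACSL6 at 2 months of age was examined by comparing the 4 cerebellum RNA-Seq libraries of young Acsl6-/- mice with the 4 libraries of young control mice, which are 8 of the 16 libraries of the series. The other 8 libraries hold the same genotypes at 18 months. All mice were female and of the C57BL/6 strain, and the groups differ from each other only in genotype and age as far as the labels say. Chow was free of the omega-3 fatty acid DHA for all mice. Acsl6-/- mice came from a cross of Acsl6 flox/flox mice with CMV-Cre mice, which gives a germline deletion in every tissue, so a change in the cerebellum can start in another organ or in development. The members are the genes of the deposited table whose normalized counts averaged 10 or more over the 16 libraries, and 17042 of 17074 genes met that rule.

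ACSL6 is an acyl-CoA synthetase, an enzyme that couples free fatty acids to coenzyme A before they can be built into membrane lipids. It is known for its preference for the omega-3 fatty acid DHA, which is abundant in neuronal membranes. Cells sense the sterol content of their membranes through the SREBP transcription factors, which are held at the endoplasmic reticulum when sterol is plentiful and otherwise switch on genes for cholesterol synthesis and uptake. A separate program, the integrated stress response with its transcription factor ATF4, raises genes for amino acid synthesis and transport when translation initiation is restrained.

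Recovered reads in genes ranged from 16953548 to 21886692 per young library, and normalized counts, which are the reads of each gene divided by 1 size factor per library, summed to between 20272973 and 21020638. Libraries of the same group correlated with a Pearson's r of 0.989 to 0.993 on the log2 scale. The tissue label was checked with markers of the cerebellum. Gabra6, a GABA receptor subunit of granule cells, had 12489 to 16207 normalized counts across the 8 libraries, and Pcp2, a Purkinje cell gene, had 4765 to 5508. The labels do not say whether each library came from a separate mouse, so the p values measure the spread between libraries. In bulk tissue, fewer cells of a type and less RNA per cell cannot be told apart.

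At 2 months, 36 of 17042 genes were called (adjusted p under 0.05, limma), or 0.211% of those tested. Of these, 23 were higher in Acsl6-/- mice (0.135% of the genes tested) and 13 were lower (0.0763%). The called increases had a median log2 fold change of 0.63 and ranged from 0.28 to 1.16, while the decreases had a median of -0.36. The median over all genes was -0.00, and 49.4% of genes had a fold change above 0. For all 36 called genes the 4 Acsl6-/- libraries lay on 1 side of the 4 control libraries, which was the case for 6.65% of all genes (3.29% above and 3.36% below the controls). At an unadjusted p under 0.05, 1030 genes (6.04%) were higher and 1038 (6.09%) lower.

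Acsl6 itself (ENSMUSG00000020333, chromosome 11 of GRCm38, 54303798 to 54364756, plus strand) had 6973, 6840.2, 6902 and 6296 normalized counts in control libraries 1 to 4. In Acsl6-/- libraries 1 to 4 it had 2248, 2336, 2297 and 2290.4. The Acsl6-/- libraries were close to each other and far below every control library. The mean was 2293 ± 36.1 (SD, n = 4) compared with 6753 ± 309 (SD, n = 4), or 34% of the control level, a log2 fold change of -1.56 (SE, the standard error of the fit, 0.04, adjusted p = 1.4e-15). An exact two-sided permutation test of the 4 against 4 values gave p = 0.0286, the smallest that 70 arrangements allow. Reads were counted per gene, and the deleted exons are not named in the labels, so the source of the remaining reads within Acsl6 was not resolved.

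Of 14 acyl-CoA synthetases measured, limma called Acsl6 alone, as did edgeR, while DESeq2 called Acsl3 as well (adjusted p = 0.016). The median log2 fold change of the list was -0.01. Acsl3 and Acsl4, which also activate long-chain fatty acids, had log2 fold changes of 0.18 (SE 0.05, adjusted p = 0.13) and 0.20 (SE 0.07, adjusted p = 0.244). Acsl3 had 3577, 3673, 3986 and 3678 normalized counts in the controls and 4282, 4331, 4035 and 4279.6 in Acsl6-/- mice, so the groups did not overlap. Acsl1 (log2 fold change -0.09, SE 0.06) and Acsl5 (228 to 272 normalized counts in Acsl6-/- libraries and 221 to 262 in controls) overlapped between the groups. None of 19 lysophospholipid acyltransferases, which place activated fatty acids into phospholipids, and none of 15 genes of fatty acid uptake and binding was called, with list medians of 0.05 and -0.00. At an unadjusted p under 0.05, 2 acyltransferases were higher and 0 lower, and 1 uptake gene was higher and 2 lower, while DESeq2 called 0 in both lists.

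Srebf2, which encodes the SREBP that favors cholesterol genes (chromosome 15, 82147181 to 82205379), had 2425, 2258, 2226 and 2183 normalized counts in controls 1 to 4. Its values in Acsl6-/- libraries 1 to 4 were 4288, 4125, 3662 and 3716, above all controls. Srebf2 thus rose by a log2 fold change of 0.79 (SE 0.07, adjusted p = 5.2e-06). Stard4, a carrier of cholesterol between membranes, had 1389, 1293, 1279 and 949 normalized counts in controls and 2446, 2242, 1975 and 1844 in Acsl6-/- mice. The groups were again apart, with control 4 the lowest of all, and Stard4 rose by 0.80 on the log2 scale (SE 0.10, adjusted p = 8.7e-04). Both calls were kept in each of the 8 fits that left out 1 young library.

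Of the 17 genes of SREBP control and sterol uptake that were measured, 3 were called higher and 0 lower, 9 had a fold change below 0 and the list median was -0.01. Insig1, which retains SREBP at the endoplasmic reticulum, had 1445, 1406, 1692 and 1424 normalized counts in controls and 2541, 2548, 1838 and 1579 in Acsl6-/- mice. Acsl6-/- library 4 was therefore within the control range, and Insig1 did not pass the test. Tmem97, a sterol-regulated membrane protein, had a log2 fold change of 0.39 (SE 0.09, adjusted p = 0.0777), and Mylip, a ubiquitin ligase induced by LXR, of -0.18 (SE 0.08, adjusted p = 0.335).

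Of 21 cholesterol synthesis enzymes, 5 were called higher and 0 lower, and 20 had a fold change above 0. The list median was 0.30. At an unadjusted p under 0.05, 15 were higher, and DESeq2 called 11 and edgeR 3. Of the called enzymes, those described here follow the order of the pathway. Hmgcs1, which makes HMG-CoA at the start of the mevalonate pathway, had 2224, 2067, 2325 and 2087 normalized counts in controls and 3536, 3332, 2776 and 2539.5 in Acsl6-/- mice (log2 fold change 0.47, SE 0.08, adjusted p = 0.0175). Idi1, the isopentenyl diphosphate isomerase, had 256, 272, 286 and 234 in controls and 531, 528, 405 and 312 in Acsl6-/- mice (0.73, SE 0.14, adjusted p = 0.0292). In both genes Acsl6-/- libraries 1 and 2 were the highest and library 4 the lowest of the group, although still above the controls.

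Fdft1, the squalene synthase, had 616, 578, 615 and 502 normalized counts in controls and 1048, 1016, 816 and 645 in Acsl6-/- mice (log2 fold change 0.59, SE 0.12, adjusted p = 0.0408). Cyp51, the lanosterol demethylase, had 853, 789, 868 and 711 in controls and 1453, 1243, 1073 and 988 in Acsl6-/- mice (0.55, SE 0.09, adjusted p = 0.0159). The order of the libraries was the same as for the earlier enzymes. Sqle and Msmo1, which act after squalene, did not pass the test with limma, with log2 fold changes of 0.53 (SE 0.11, adjusted p = 0.0532) and 0.55 (SE 0.11, adjusted p = 0.0517). DESeq2 called both (adjusted p = 8.1e-04 and 0.00109), and edgeR called neither (0.0813 and 0.0879). Pmvk was the enzyme with a value below 0, at -0.05 (SE 0.07, adjusted p = 0.828).

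The summed normalized counts of the 21 enzymes were 14532, 14242, 15287 and 13685 in controls 1 to 4 and 21258, 20514, 17858 and 15887 in Acsl6-/- libraries 1 to 4. The groups did not overlap, but the Acsl6-/- libraries differed from each other by more than the controls did. The median of the enzymes against the control mean was 0.47, 0.33, 0.29 and 0.06 on the log2 scale in Acsl6-/- libraries 1 to 4. Over the 8 fits that left out 1 young library, the number of enzymes called ranged from 1 to 11. Without Acsl6-/- library 4 it was 11, without Acsl6-/- library 2 it was 1, and without control library 2 it was 1. Acsl6-/- library 4 had the lowest median of its group, so the larger count without it is no separate support for an increase. Without control libraries 1 and 4, which are described below, 1 enzyme was called, and the median was 0.25.

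**Figure D1:**
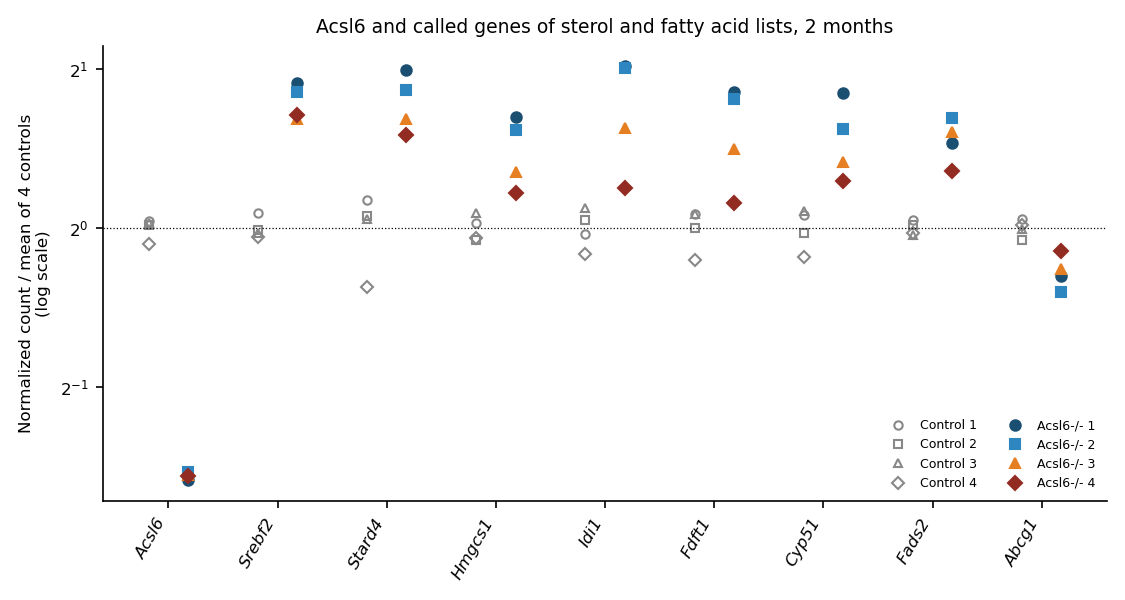
Normalized count of each gene divided by the mean of the 4 control libraries, on a log scale, for the 8 libraries of 2 months. Gray open symbols are control libraries 1 to 4 and filled symbols Acsl6-/- libraries 1 to 4. Idi1 was at 531 and 528 normalized counts in Acsl6-/- libraries 1 and 2 and at 312 in library 4, and Acsl6 was at 2248 to 2336 in all 4.

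Fads2, the desaturase that opens the synthesis of highly unsaturated fatty acids, had 693, 679.8, 650.0 and 657 normalized counts in controls and 972, 1082, 1021 and 860.0 in Acsl6-/- mice. All Acsl6-/- libraries were above the controls, and Fads2 rose by 0.55 on the log2 scale (SE 0.07, adjusted p = 7.5e-04). Of 20 genes of desaturation and elongation, limma and edgeR called Fads2 alone and DESeq2 called 2, 16 had a fold change above 0 and the median was 0.09. Its neighbor in the pathway, Fads1, had 0.18 (SE 0.05, adjusted p = 0.115), and Scd2, a desaturase that makes monounsaturated fatty acids, had 0.15 (SE 0.04, adjusted p = 0.13), and it was the second gene called by DESeq2 (adjusted p = 0.0106).

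Idh1, a cytosolic enzyme that yields NADPH for lipid synthesis, had 349, 384, 401 and 411 normalized counts in controls and 586, 644, 493 and 487 in Acsl6-/- mice, without overlap. It rose by 0.51 on the log2 scale (SE 0.09, adjusted p = 0.0159). Rdh11, a retinol dehydrogenase, had 799.7, 836, 836 and 806 in controls and 973, 1010.2, 1063 and 941 in Acsl6-/- mice (log2 fold change 0.28, SE 0.05, adjusted p = 0.0284). None of 14 genes of de novo fatty acid synthesis was called by limma, 3 were higher at an unadjusted p under 0.05, and DESeq2 and edgeR each called 2 higher. Fasn, the fatty acid synthase, had a log2 fold change of 0.30 (SE 0.06, adjusted p = 0.0532 with limma). It was called by DESeq2 (adjusted p = 3.5e-04) and edgeR (0.0477).

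On the export side, Abcg1, a transporter that moves cholesterol out of cells, had 2561, 2335, 2459 and 2494 normalized counts in controls. In Acsl6-/- mice it had 1999.9, 1863, 2059 and 2229, below all controls. Abcg1 fell by 0.28 on the log2 scale (SE 0.05, adjusted p = 0.0398), and of 16 genes of cholesterol efflux and LXR, a list with a median of 0.08, limma and DESeq2 called it alone and edgeR called 0. Abca1, another exporter, had a log2 fold change of -0.19 (SE 0.06, adjusted p = 0.185). The call of Abcg1 was kept in 3 of the 8 fits that left out 1 library.

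The bases upstream of the annotated start of genes called here, or of the integrated stress response list, were read from RefSeq (GRCm38.p6) to show which motifs lie there. Stretches that lie in an annotated exon were left out, so some end before the start site. Capitals mark 3 motifs searched on both strands, which are TCACNCCA (an SRE-like motif, bound by SREBP), CCAAT (bound by NF-Y, which works with SREBP) and TGATGNAA (a CARE-like motif, bound by ATF4 with a CEBP partner). They do not overlap each other in these stretches.
Hmgcs1 (chr13:119690101-119690350, plus strand, 250 to 1 bases upstream): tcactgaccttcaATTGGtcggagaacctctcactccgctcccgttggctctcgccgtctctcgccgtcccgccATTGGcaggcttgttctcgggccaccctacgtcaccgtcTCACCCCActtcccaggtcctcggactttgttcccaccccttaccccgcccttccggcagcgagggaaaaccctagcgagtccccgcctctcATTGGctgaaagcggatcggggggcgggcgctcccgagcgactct
Srebf2 (chr15:82147019-82147180, plus strand, 250 to 89 bases upstream): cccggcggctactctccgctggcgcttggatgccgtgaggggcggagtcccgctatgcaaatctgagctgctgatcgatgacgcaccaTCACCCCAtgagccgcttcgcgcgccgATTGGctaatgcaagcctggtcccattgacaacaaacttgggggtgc
Cyp51 (chr5:4104747-4104947, minus strand, 250 to 50 bases upstream): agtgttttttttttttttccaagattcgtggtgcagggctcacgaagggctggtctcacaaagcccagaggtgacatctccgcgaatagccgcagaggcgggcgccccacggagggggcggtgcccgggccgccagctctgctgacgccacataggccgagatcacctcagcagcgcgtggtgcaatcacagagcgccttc
Psat1 (chr19:15925060-15925309, minus strand, 250 to 1 bases upstream): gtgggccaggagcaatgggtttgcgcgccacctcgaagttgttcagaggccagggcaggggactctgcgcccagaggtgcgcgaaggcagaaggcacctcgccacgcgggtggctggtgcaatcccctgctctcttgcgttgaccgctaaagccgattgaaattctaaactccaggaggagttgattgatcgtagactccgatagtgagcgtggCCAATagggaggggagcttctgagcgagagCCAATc
Chac1 (chr2:119350992-119351228, plus strand, 250 to 14 bases upstream): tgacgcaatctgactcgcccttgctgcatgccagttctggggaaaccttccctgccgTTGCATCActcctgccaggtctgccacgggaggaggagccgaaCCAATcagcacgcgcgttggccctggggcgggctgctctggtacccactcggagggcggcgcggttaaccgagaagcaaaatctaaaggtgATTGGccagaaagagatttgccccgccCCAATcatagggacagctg

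TCACNCCA was found in 3.67% of all 32851 RefSeq windows of 250 bases, CCAAT in 33.8% and TGATGNAA in 3.45%. Of the 21 cholesterol enzymes, 16 had a window, and CCAAT was found in 15 of these and TCACNCCA in 2. Of 27025 genes with a window, 37.5% held CCAAT and 4.2% held TCACNCCA. Of the 28 genes of the integrated stress response list, 23 had a window, and TGATGNAA was found in 7, compared with 3.91% of all genes with a window. These matches describe letters only, and no factor binding was measured.

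Of 26 genes of the integrated stress response that were measured, 3 were called higher and 0 lower, 20 were higher at an unadjusted p under 0.05, and 25 had a fold change above 0. The list median was 0.34, and DESeq2 called 10 and edgeR 6. Eif4ebp1, a repressor of cap-dependent translation that ATF4 induces, had 16.3, 17.2, 16.4 and 16.9 normalized counts in controls and 28.3, 42.9, 38.1 and 48.1 in Acsl6-/- mice. It had the largest increase of the called genes, with a log2 fold change of 1.16 (SE 0.18, adjusted p = 0.00506), at a low level.

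Psat1, an enzyme of serine synthesis, had 1449, 1429.7, 1431 and 1366 normalized counts in controls. Its values in Acsl6-/- libraries 1 to 4 were 1714, 2134, 1883 and 2069 (log2 fold change 0.45, SE 0.09, adjusted p = 0.0342). Ddit4, an inhibitor of the growth kinase mTOR that also responds to glucocorticoids, had 1178, 979.8, 1245 and 1336 in controls and 1588, 1599, 1717 and 1822 in Acsl6-/- mice (0.51, SE 0.10, adjusted p = 0.0292). Neither gene overlapped between the groups. The calls of Psat1 and Ddit4 were kept in 1 and 2 of the 8 fits that left out 1 library.

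Acsl6-/- library 1 differed from the others of its group in these genes. The list median against the control mean was 0.09 in library 1 and 0.39, 0.36 and 0.42 in libraries 2 to 4. Asns, the asparagine synthetase, had 1152, 1082, 1017 and 1143 normalized counts in controls, 1067 in Acsl6-/- library 1 and 1624, 1638 and 1781 in libraries 2 to 4. Sesn2, a stress-induced leucine sensor, had 269, 285, 257 and 247 in controls, 295 in library 1 and 492, 509 and 523 in the others. Neither passed the test with limma, with adjusted p of 0.116 for Asns and 0.0799 for Sesn2. With all young libraries, Sesn2 was called by DESeq2 (adjusted p = 1.0e-04) and edgeR (0.0477). Asns was called by neither DESeq2 (0.127) nor edgeR (0.133).

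The same split by library was seen for Atf4, which had 1973, 2016, 2058 and 1993 normalized counts in controls and 2191, 2575, 2630.5 and 2751 in Acsl6-/- mice (log2 fold change 0.33, SE 0.08, adjusted p = 0.0899 with limma). Chac1, which degrades glutathione, had 68.7, 51.6, 44.4 and 82.7 in controls and 67.4, 125, 143 and 201 in Acsl6-/- mice (1.04, SE 0.31, adjusted p = 0.155 with limma). With all young libraries, DESeq2 called Atf4 (adjusted p = 2.0e-04) and Chac1 (0.00916). EdgeR called Atf4 (0.0397) but not Chac1 (0.14). Ddit3, the stress factor CHOP, had -0.09 (SE 0.08, adjusted p = 0.714) and was the member below 0. Without Acsl6-/- library 1, limma called 13 of the 26 genes higher, among them Asns (adjusted p = 0.00201), Sesn2 (0.00755), Shmt2 (0.0123), Mthfd2 (0.0172), Slc7a5 (0.0173), Atf4 (0.0234) and Chac1 (0.0432). Library 1 was singled out by its low values in these same genes. Smaller p values without it follow from that choice and are no separate support for an increase. Without any other single library 1 or 2 of the 26 were called, and without control libraries 1 and 4 there were 0, with a median of 0.40. The fit without Acsl6-/- library 1 called 64 genes higher and 49 lower over all genes, or 0.376% and 0.288%.

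Slc7a3 and Stc2, which were picked with their values in view, showed the same split by library. Slc7a3, a cationic amino acid transporter, had 24.4, 22.1, 30.9 and 25.4 normalized counts in controls, 38.1 in Acsl6-/- library 1 and 251, 228 and 272 in libraries 2 to 4. Stc2, a secreted stress protein, had 18.6, 11.1, 20.3 and 24.4 in controls, 20.5 in library 1 and 100.4, 91.6 and 94.3 in the others. Neither was called by limma with all libraries. At 18 months the control means were 161 ± 93.3 (SD) for Slc7a3 and 68 ± 33.7 for Stc2. Those of Sesn2 and Asns were 387 ± 93.3 and 1441 ± 195. Acsl6-/- mice of that age had means of 219, 91.2, 443 and 1639 for these 4 genes. Mean levels above those of the young controls were thus also seen in control mice at 18 months. Why library 1 stood apart was not tested.

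**Figure D2:**
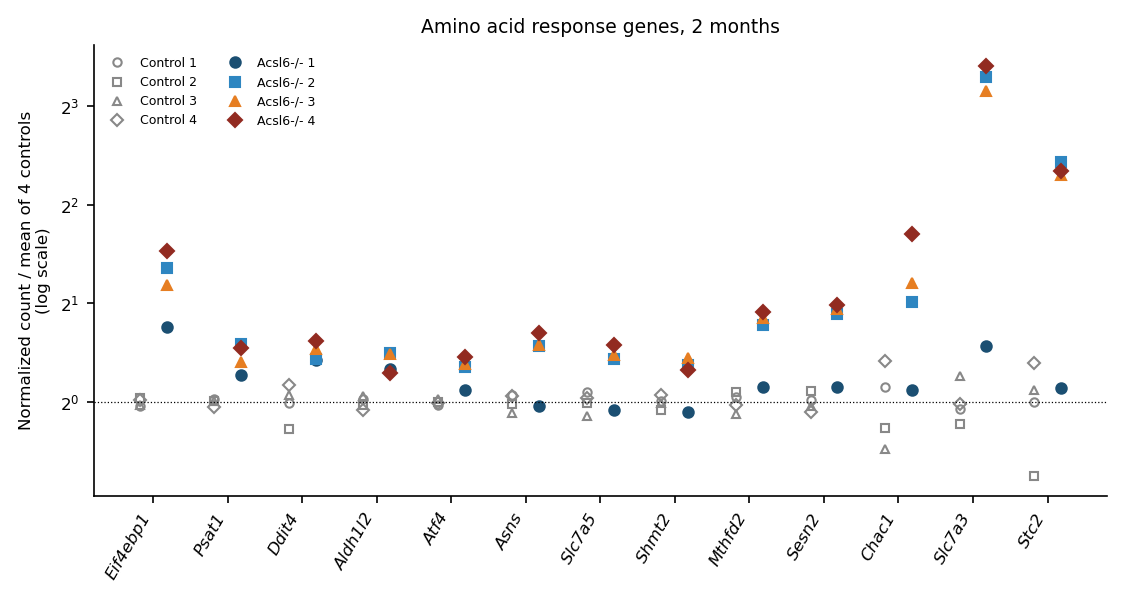
Normalized count of each gene divided by the mean of the 4 control libraries, on a log scale, with gray open symbols for control libraries 1 to 4 and filled symbols for Acsl6-/- libraries 1 to 4. Asns was at 1067 normalized counts in Acsl6-/- library 1, near the controls, and at 1624 to 1781 in the other Acsl6-/- libraries.

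A set of genes known to follow fasting, PPAR or glucocorticoid signals included 3 called increases. Pdk4, a kinase that restrains pyruvate oxidation, had 136, 198, 180.3 and 156 normalized counts in controls and 359.7, 210.2, 360.2 and 376 in Acsl6-/- mice, where library 2 was close to the controls (log2 fold change 0.94, SE 0.19, adjusted p = 0.0465). Angptl4, an inhibitor of lipoprotein lipase, had 57, 88.5, 63.6 and 65.8 in controls and 122, 106, 128 and 138 in Acsl6-/- mice (0.85, SE 0.17, adjusted p = 0.0475). Each call was kept in 1 of the 8 fits that left out 1 library. Of 36 genes of the PPAR and fasting list, Pdk4 and Angptl4 were the 2 called by limma, and the median was 0.05. DESeq2 called 4 and edgeR 3, with Txnip, a brake on glucose uptake, called by both (adjusted p = 2.8e-06 and 0.0296) and at 0.0525 with limma, and Acadl, an enzyme of fatty acid oxidation, called by DESeq2 (0.0285) and at 0.0517 with limma.

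The glucocorticoid response list had 1 gene called higher of 29 (Ddit4, given above), 12 higher at an unadjusted p under 0.05 and a median of 0.25. DESeq2 called 7 and edgeR 3. The library medians were 0.21, -0.02, 0.27 and 0.43 in Acsl6-/- libraries 1 to 4 and -0.07 to 0.09 in controls. Sgk1, a kinase induced by glucocorticoids, had 2025, 2140.3, 2218 and 1769.9 normalized counts in controls and 3277, 2629, 3117 and 3965 in Acsl6-/- mice. The groups did not overlap, but Sgk1 did not pass the test with limma (log2 fold change 0.66, SE 0.16, adjusted p = 0.0947), while it did with DESeq2 (1.1e-07) and edgeR (0.022). Without Acsl6-/- library 4 the list median was 0.06.

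Clock genes, which follow the hour of collection, were listed beside these. None of 22 was called, 10 were higher and 2 lower at an unadjusted p under 0.05, DESeq2 called 1, and the median was 0.09. Per3, a clock repressor, had the smallest p, with 849, 952, 946 and 1066 normalized counts in controls and 1149.5, 1272, 1341 and 1096 in Acsl6-/- mice (log2 fold change 0.35, SE 0.07, adjusted p = 0.0528). The hour of collection is not given in the sources used here, and its part in the result was not tested.

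Immediate early genes are those that neurons switch on with activity. Of 36 measured, limma called 1 higher and 1 lower, DESeq2 and edgeR each 3 higher and 1 lower, 29 had a fold change above 0 and the median was 0.19. Klf2, a transcription factor of endothelial cells and of the immediate early class (chromosome 8, 72319033 to 72321656), had 108, 130.3, 116 and 114 normalized counts in controls and 212, 159, 214 and 267 in Acsl6-/- mice. The groups did not overlap, and Klf2 rose by 0.84 on the log2 scale (SE 0.13, adjusted p = 0.00506). Cldn5, a defining gene of endothelial cells, had 832, 591, 573 and 861 in controls and 449, 629.6, 534 and 514 in Acsl6-/- mice and was not called (log2 fold change -0.41, SE 0.13, adjusted p = 0.195).

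Arc, a synaptic gene induced by activity, had 461, 461, 455 and 386 normalized counts in controls and 282, 348, 296 and 319 in Acsl6-/- mice. It fell by 0.50 on the log2 scale (SE 0.10, adjusted p = 0.0493), close to the threshold, and the call was kept in 1 of the 8 fits that left out 1 library. Nr4a1 and Arl4d, both immediate early genes, lay in the other direction, with log2 fold changes of 0.90 (SE 0.22, adjusted p = 0.0953) and 0.83 (SE 0.20, adjusted p = 0.0925) in the limma fit. Arl4d was called by DESeq2 (adjusted p = 3.6e-08) and edgeR (0.0103), and Nr4a1 by neither (0.293 and 0.173). Nr4a1 had 439, 1073, 597 and 406 normalized counts in controls and 1200.3, 1039.5, 986 and 1127 in Acsl6-/- mice, so control library 2 was within the Acsl6-/- range.

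Among the decreases, 2 genes of calcium release and phospholipase C signaling had small p values. Ryr3, a ryanodine receptor that releases calcium from the endoplasmic reticulum (chromosome 2, 112631355 to 113217096), had 1072, 1154, 1032 and 1122 normalized counts in controls. It had 751, 608, 642 and 705 in Acsl6-/- mice, well below the controls, and fell by 0.70 on the log2 scale (SE 0.08, adjusted p = 1.5e-04). Plcb1, a phospholipase C that receptors activate through Gq, had 2572, 2578, 2581 and 2432 in controls and 2003, 1983, 1874 and 1910.4 in Acsl6-/- mice. Plcb1 fell by 0.39 on the log2 scale (SE 0.04, adjusted p = 2.1e-04). Both calls were kept in each of the 8 fits that left out 1 library.

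Of the 35 members of this list, limma called 0 higher and 2 lower, 24 had a fold change below 0, 2 were higher and 7 lower at an unadjusted p under 0.05, and the median was -0.03. DESeq2 and edgeR each called 3 lower. Calr, a calcium-binding chaperone of the endoplasmic reticulum, was the third, with a log2 fold change of -0.25 (SE 0.10) and an adjusted p of 2.4e-05 with DESeq2, 0.0291 with edgeR and 0.336 with limma. Itpr1, the main inositol trisphosphate receptor of Purkinje cells, had 68560.0 to 81469 normalized counts in Acsl6-/- libraries and 72961 to 77071 in controls. Plcb4, the phospholipase C of Purkinje cells, had a log2 fold change of 0.09 (SE 0.05, adjusted p = 0.544), and the ryanodine receptors Ryr1 (1814 to 2109 in Acsl6-/- libraries, 1834 to 2086 in controls) and Ryr2 (5241 to 6147 and 5473 to 6614) overlapped between the groups.

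Adgrl3, the adhesion receptor latrophilin 3, had 2194, 2278, 2037 and 2052 normalized counts in controls and 1729, 1625, 1572 and 1630.5 in Acsl6-/- mice (log2 fold change -0.38, SE 0.06, adjusted p = 0.00631). Tenm1, a teneurin, which belongs to a family of latrophilin partners, had 4625, 4817, 4494 and 4208 in controls and 3245, 3495, 3665 and 3683 in Acsl6-/- mice (-0.36, SE 0.07, adjusted p = 0.0292). Megf10, an engulfment receptor of glia, had 2571, 2438, 2224 and 2322 in controls and 2139, 1692, 1726 and 1818 in Acsl6-/- mice (-0.38, SE 0.08, adjusted p = 0.0475). In all 3 the groups were apart, and Acsl6-/- library 1 was the closest to the controls for Megf10.

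Lsamp, a cell adhesion protein of neurons, had 9627, 10037, 9231 and 9331 normalized counts in controls and 8945, 7737, 7677 and 8097 in Acsl6-/- mice (log2 fold change -0.24, SE 0.05, adjusted p = 0.0475). Sema4f, a semaphorin, had 1961 to 1985 in controls and 1639 to 1744 in Acsl6-/- mice (-0.21, SE 0.04, adjusted p = 0.0232). Cdh10, a cadherin, moved the other way, with 237, 202, 196 and 241 in controls and 267, 349, 283 and 303 in Acsl6-/- mice (0.45, SE 0.09, adjusted p = 0.0398). The changes of Lsamp and Sema4f were among the smallest that were called.

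The remaining decreases were Iffo2, an intermediate filament family gene, Ralyl, an RNA-binding protein, and Tmem25, a transmembrane protein. Iffo2 had 1472, 1435, 1486 and 1697 normalized counts in controls and 1184, 1217, 1155 and 1175 in Acsl6-/- mice (log2 fold change -0.36, SE 0.05, adjusted p = 0.00433). Ralyl had 1010.3, 1088, 1016 and 1080.3 in controls and 871, 904, 785 and 832 in Acsl6-/- mice (-0.31, SE 0.05, adjusted p = 0.00506). Neither gene overlapped between the groups, and both calls were kept in each of the 8 fits. Tmem25 had 2714 to 2861 in controls and 2209.6 to 2448 in Acsl6-/- mice (-0.26, SE 0.05, adjusted p = 0.0336).

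The remaining increases were Gfap, Pdlim1, Synj2 and Utp14b. Gfap, the intermediate filament of astrocytes, had 1831, 1483, 1971 and 1597 normalized counts in controls and 2782, 2675, 2292 and 1981 in Acsl6-/- mice (log2 fold change 0.50, SE 0.10, adjusted p = 0.0475). The lowest Acsl6-/- library was just above the highest control, and the libraries followed the same order as the cholesterol enzymes. Pdlim1, a cytoskeletal adaptor, had 68.7, 59, 72.3 and 80.8 in controls and 116, 107, 93.7 and 144 in Acsl6-/- mice (0.70, SE 0.14, adjusted p = 0.0408).

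Utp14b, a gene of ribosome biogenesis, had 215, 266, 249.8 and 262 normalized counts in controls and 377, 367, 382 and 414 in Acsl6-/- mice. The groups were well apart, and Utp14b rose by 0.63 on the log2 scale (SE 0.09, adjusted p = 0.00243). It lies on the plus strand of chromosome 1 (78658038 to 78671512), inside the span of Acsl3 on the same strand, and 244 of its 7679 annotated exon bases are shared with an exon of Acsl3. Reads in the shared bases cannot be assigned to either gene by their place, so the value of Utp14b is uncertain at least to that extent. Whether reads of Acsl3 RNA outside the shared bases were counted for Utp14b was not tested.

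Genes of synaptic vesicles and release included 1 called gene of 35. Synj2, a phosphatase of membrane inositol lipids that acts in endocytosis, had 869.5, 808, 822 and 741 normalized counts in controls and 1009, 1005, 1044 and 1047 in Acsl6-/- mice. It rose by 0.34 on the log2 scale (SE 0.06, adjusted p = 0.0159), without overlap. Snap25, a part of the fusion machinery, did not pass the test, with a log2 fold change of -0.15 (SE 0.05, adjusted p = 0.196). The list median was -0.03, with 23 of 35 members below 0.

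Of 34 postsynaptic and adhesion genes, 0 were called in either direction, and the median was -0.01. At an unadjusted p under 0.05, 3 were higher and 7 lower, and DESeq2 called 1 higher and 1 lower. Dlg4, a scaffold of excitatory synapses, had 6752, 6947, 6993 and 6898 normalized counts in controls and 6452, 6178, 6552 and 6474 in Acsl6-/- mice. The groups did not overlap, but Dlg4 did not pass the test (log2 fold change -0.11, SE 0.04, adjusted p = 0.255). Sparcl1, a protein that astrocytes secrete to promote synapses, had 36116, 36196, 37482 and 36502 in controls and 40366, 40202, 39854 and 39025 in Acsl6-/- mice (0.12, SE 0.03, adjusted p = 0.129 with limma). It was the gene called higher by DESeq2 (adjusted p = 0.00659), and its groups did not overlap. C4b, a complement gene, had 0.48 (SE 0.13, adjusted p = 0.138), and none of the 26 genes of complement, MHC and interferon was called, with 1 higher at an unadjusted p under 0.05 and 1 called by DESeq2.

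Markers of oligodendrocytes and myelin were above 0 for 32 of 33 genes, with a median of 0.16 and 0 called. At an unadjusted p under 0.05, 15 were higher, and DESeq2 called 7 and edgeR 0. Their summed normalized counts were 128189 to 144825 in controls and 135355 to 170678 in Acsl6-/- libraries, with library 3 the lowest of its group. Myelin-forming cells make cholesterol in quantity, and the part of these markers in the increase of the cholesterol enzymes was not tested.

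Of 21 astrocyte and Bergmann glia markers, limma called Gfap alone, DESeq2 called 2 and edgeR 0 (adjusted p of Gfap 0.0824), 18 were above 0 and the median was 0.09. Their summed counts were 191794 to 202789 in controls and 199742 to 207211 in Acsl6-/- libraries. Aqp4, a water channel of astrocytes, had a log2 fold change of 0.25 (SE 0.06, adjusted p = 0.102 with limma and 0.0496 with DESeq2). The part of astrocyte markers in the result for Gfap was not tested. Of 21 microglia markers, none was called by limma or DESeq2, 7 were higher at an unadjusted p under 0.05, and the median was 0.22.

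Granule cell markers had a median of -0.07 over 21 genes and Purkinje cell markers of 0.02 over 30 genes, with 0 called in both. DESeq2 called 2 granule cell markers lower and 0 Purkinje cell markers, and at an unadjusted p under 0.05 there were 4 lower granule cell markers, and 3 higher and 1 lower Purkinje cell markers. Markers of molecular layer interneurons and Golgi cells were below 0 for 11 of 14 genes, with a median of -0.14 and 0 called, while 8 were lower at an unadjusted p under 0.05 and DESeq2 called 3 and edgeR 1 lower. Their summed counts were 31053 to 32449 in controls and 31229, 27039, 27955 and 28006 in Acsl6-/- libraries 1 to 4. Lgi2 had a log2 fold change of -0.27 (SE 0.06, adjusted p = 0.0517). The part of these markers in the decreases of Adgrl3, Tenm1 and Lsamp was not tested.

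Markers of brainstem and midbrain, of which 16 of 33 names were measured and 17 were not in the table, had a median of 0.40 with 0 called, with 4 higher and 1 lower at an unadjusted p under 0.05 and 1 higher and 1 lower by DESeq2. Their library medians were 0.65, 0.82, -0.15 and 0.10 in Acsl6-/- libraries 1 to 4 and -0.23 to 0.34 in controls. Glra1, a glycine receptor subunit of brainstem, had 11.6, 18.4, 8.68 and 21.6 normalized counts in controls and 112, 52.3, 19.6 and 25 in Acsl6-/- mice, so libraries 1 and 2 were the highest, as for the cholesterol enzymes. The part of these markers in the result for the cholesterol enzymes was not tested.

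Ttr, the transthyretin gene of choroid plexus, had 5792, 435, 99.3 and 7943 normalized counts in control libraries 1 to 4 and 391, 279, 273 and 432 in Acsl6-/- libraries 1 to 4. Control libraries 1 and 4 therefore stood apart, and Folr1, another choroid plexus gene, had 43.1 and 39.5 there and 0.962 to 7.32 in the other young libraries. The 18 markers of choroid plexus had a median of -0.69 with all libraries and of 0.29 without these 2. Without these 2 libraries, 6 genes were called higher (0.0352%) and 4 lower (0.0235%), and 8 of the 36 calls were kept, among them Acsl6, Srebf2, Stard4, Fads2, Cdh10, Ryr3 and Plcb1. The log2 fold changes of Hmgcs1 (0.46), Idi1 (0.64), Fdft1 (0.54) and Cyp51 (0.51) were close to those with all libraries. This fit rested on 2 control libraries.

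**Figure D3:**
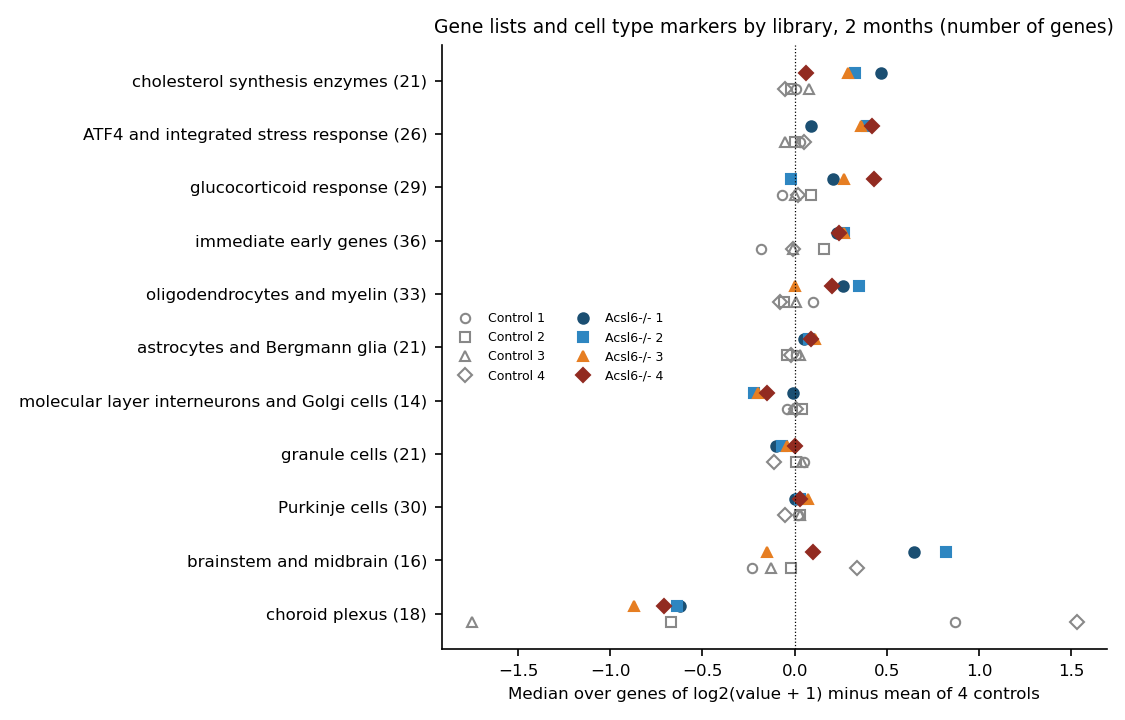
Median over the genes of each list of log2(normalized count + 1) minus the mean of the 4 control libraries, for each library of 2 months, with the number of genes in parentheses. The median of the stress response list was 0.09 in Acsl6-/- library 1 and 0.36 to 0.42 in the others, and that of the cholesterol enzymes was 0.06 in library 4 and 0.47 in library 1.

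Of 28 genes of NRF2 and peroxide defense, 30 of heat shock and protein folding, 86 of the cytosolic ribosome, 92 nuclear and 13 mitochondrial genes of the respiratory chain, none was called at 2 months. Their medians were -0.02, -0.05, 0.05, -0.01 and -0.02, and 12, 11, 73, 41 and 3 of them had a fold change above 0. At an unadjusted p under 0.05, 2, 4, 13, 4 and 0 of them were higher and 0, 1, 0, 3 and 0 lower, and DESeq2 called 2 folding genes lower and no other. Markers of endothelial and mural cells had a median of -0.02 over 30 genes, of which Klf2 was the 1 called by limma and edgeR, while DESeq2 called 1 higher and 1 lower. Markers of oligodendrocyte precursors, meninges, ependymal cells and erythrocytes had medians of 0.10, 0.14, 0.15 and 0.25 with 0 called by limma or DESeq2, and at an unadjusted p under 0.05 there were 3, 0, 1 and 0 higher. Of these 11, 15, 10 and 6 markers, 11, 13, 9 and 6 had a fold change above 0.

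Whether the effect of genotype differed between 2 and 18 months was tested as an interaction of genotype and age, given as the 18 month value less the 2 month value. The interaction was called for 3 of 17042 genes (0.0176%), and 1707 (10%) had an unadjusted p under 0.05. All 3 were among the 36 genes called at 2 months. The interaction contains the same 2 month difference, so this overlap is partly built in. The log2 fold change of Klf2 was 0.84 at 2 months and -0.30 at 18 months (interaction -1.14, SE 0.18, adjusted p = 0.0299). Its mean was 117 at 2 months and 316 at 18 months in controls, and 213 and 256 in Acsl6-/- mice. For Utp14b the values were 0.63 and -0.24 (interaction -0.87, SE 0.13, adjusted p = 0.0296), with means of 248 and 486 in controls and 385 and 413 in Acsl6-/- mice. For both genes the mean thus differed more between the ages in controls than in Acsl6-/- mice. Plcb1 was lower at 2 months and near 0 at 18 months, with 0.01 (interaction 0.40, SE 0.06, adjusted p = 0.0299). Its means were 2541 and 2157 in controls and 1943 and 2175 in Acsl6-/- mice.

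Of the 23 genes called higher at 2 months, 17 had a fold change above 0 at 18 months and 4 were called there, with a median of 0.12, where 41 of all genes (0.241%) were called. Of the 13 called lower, 7 were below 0 at 18 months and 1, Acsl6, was called, with a median of -0.01. These genes were chosen by their values at 2 months, so smaller values at 18 months can follow from that choice alone. Srebf2 and Stard4 had log2 fold changes of 0.55 (SE 0.07, adjusted p = 0.00162) and 0.64 (SE 0.10, adjusted p = 0.012) at 18 months. Hmgcs1, Cyp51 and Fads2 had 0.12, 0.10 and 0.09 there. Their interactions did not pass the test, with adjusted p of 0.304, 0.251 and 0.128, so a difference between the ages was not shown for them. The list medians at 18 months were 0.12 for the cholesterol enzymes and 0.13 for the integrated stress response, compared with 0.30 and 0.34 at 2 months, a difference that was not tested.

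**Figure D4:**
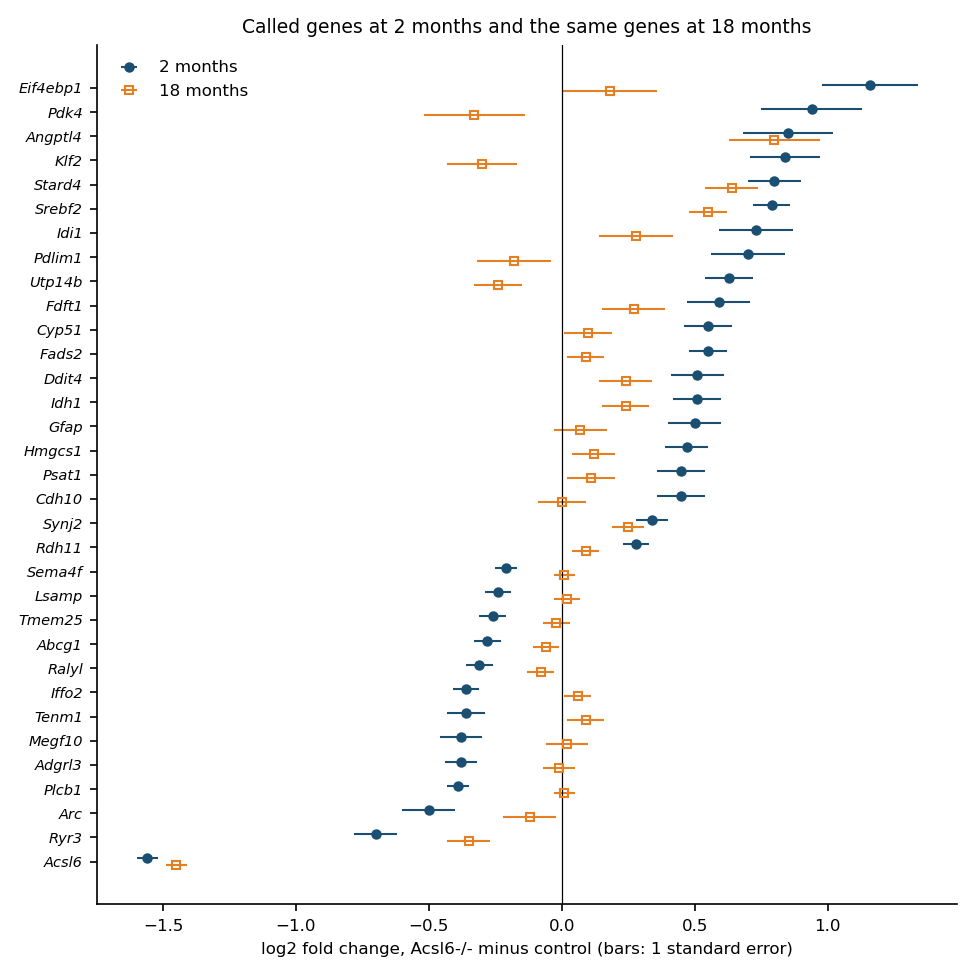
Log2 fold change between Acsl6-/- and control mice with bars of 1 standard error, for 33 genes called at 2 months (20 higher and 13 lower), at 2 months (filled circles) and 18 months (open squares). Srebf2 was at 0.79 and 0.55, Ryr3 at -0.70 and -0.35, and Klf2 at 0.84 and -0.30.

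The calls rested on single libraries to different degrees. Of the 36 called genes, 13 kept their call in each of the 8 fits that left out 1 young library, and 23 lost it in at least 1. Named genes with a call in all 8 were Acsl6, Srebf2, Stard4, Fads2, Eif4ebp1, Klf2, Utp14b, Ryr3, Plcb1, Adgrl3, Iffo2 and Ralyl. DESeq2 on the recovered reads of the 8 libraries called all 36 among 252 genes (137 or 0.804% higher, 115 or 0.675% lower). EdgeR on the same reads called 28 of them, among 34 higher (0.2%) and 22 lower (0.129%). The 3 called genes of the stress response list were all called by edgeR, with adjusted p of 0.0404 for Eif4ebp1, 0.0103 for Psat1 and 0.028 for Ddit4, while Idi1 (0.0546) and Fdft1 (0.0843) were not.

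**Figure D5:**
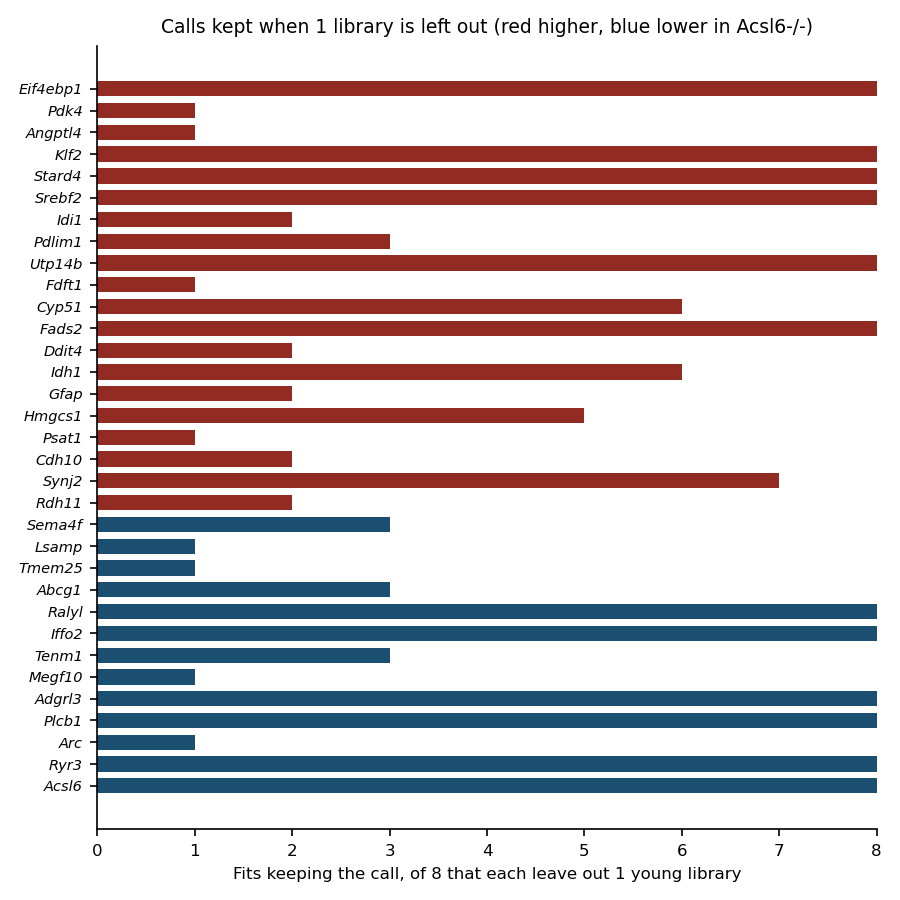
Number of fits, of 8 that each left out 1 young library, in which a gene kept its adjusted p under 0.05, for 33 genes called at 2 months. Red bars are genes higher and blue bars genes lower in Acsl6-/- mice, and 12 of the genes shown kept the call in all 8 fits while 8 kept it in 1.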

How the data were processed

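Cerebellum RNA was extracted with TRIzol and poly(A) libraries were sequenced by the study. According to the submitters' processing notes, reads were trimmed with Trimmomatic 0.36 and aligned to GRCm38 with STAR 2.5.2b. The deposited signal is the normalized count, which the authors made with 1 size factor for the gene counts of a library. Whether counting used strand is not given in the sources used here. In 14 of 16 libraries, the 8 of 2 months included, the smallest step between values gave back whole reads for 100% of values, within a tolerance of 0.001. Names, coordinates and exons came from GENCODE for 17026 of the 17074 genes.

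Values were taken to log2 after adding 1. The 17042 genes that averaged 10 or more entered a linear model with 4 groups and all 16 libraries (limma 3.58.1, R 4.3.3), with the prior variance following expression. The p values are two-sided, adjusted by the Benjamini-Hochberg method over all genes and called under 0.05. The fold change of a low gene is understated on this scale. DESeq2 1.42.0 and edgeR 4.0.16 were run on the recovered reads of the 8 young libraries, and 2315 genes had no adjusted p in DESeq2. The alternatives were a pseudocount of 5, other filters, normalizations and weights, a replicate block, and fits without 1 or 2 libraries. The tests were also run on simulated counts that had the spread of the young libraries in all groups, and the outcome is not given here.

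The members and the 35 gene lists were chosen with earlier results of these data known. Named genes were the called genes with a name, the leading genes of each list by p (at most 4 a direction), the genes the study names for young mice, and defining markers. Promoter motifs and the genes of single libraries were chosen after values were seen. A few genes covered by this rule are not reported here, but are in every count and median. Lipid and behavior data of the study were not analysed here.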

Additional observations from a re-analysis of the deposited data

Results flagged for a closer look

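In 3 of 72 groups of 4 libraries (the 36 called genes in 2 groups each), 1 library lay far from the other 3 by Dixon's test at the 95% level. Chance flags about 1 in 20 groups. Plcb1 was at 2432 in control library 4, compared with 2572 to 2581 in the other controls. Arc was at 386 in the same library, compared with 455 to 461 in the other controls, and both values lay on the side of the Acsl6-/- libraries. Pdk4 was at 210.2 in Acsl6-/- library 2, compared with 359.7 to 376 in the others, nearer to the controls.

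The effect of genotype differed between the ages by the interaction test for Klf2 (-1.14), Utp14b (-0.87) and Plcb1 (0.40), given as the log2 fold change at 18 months minus that at 2 months. Without young control library 1, without Acsl6-/- library 1 or without Acsl6-/- library 3, the interaction was called for 0 genes.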

How the results depend on the processing

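The counts of called genes at 2 months depended on the fit. No called gene changed sign under any alternative, but all 36 were chosen by their call and had groups that did not overlap. Their sign could therefore hardly change, and its stability is no separate support. Against 23 genes higher and 13 lower, the totals over all genes were 39 higher with a mean of at least 50, 45 higher and 24 lower with array weights, 38 higher with the length trend removed, 22 lower with the 2 groups alone, 22 lower with edgeR, 137 higher and 115 lower with DESeq2, and 6 higher and 4 lower without the 2 control libraries high in Ttr. Leaving out 1 young library gave 10 to 64 genes higher and 6 to 49 lower, with the most without Acsl6-/- library 1 and the fewest without control library 1. The interaction was called for 3 genes, for 6 with array weights, 1 with the length trend removed, 0 without the 2 control libraries high in Ttr, and 0 to 5 when 1 young library was left out. These last fits had smaller groups, and the cause of the differing counts was not tested. The call of Acsl6 was kept in each alternative. A replicate block by label number gave 18 higher and 8 lower. The correlations of the deviations of same-numbered libraries were -0.097, -0.124, 0.116 and -0.072. Those of libraries with different numbers ranged from -0.135 to 0.162, so libraries that share a number were not closer to each other. With 4 such pairs this cannot exclude a pairing, and the labels name none. At 16953548 reads or more per library, genes with few counts such as Eif4ebp1 are limited by counting error.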
